A study of Mus musculus with 6 samples.

Results

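The 38 genes described here run the cell cycle and copy DNA, from the cyclins and E2F factor that start S phase to the ubiquitin enzymes that end mitosis. They were chosen by function, as a list of names. Of the 38, 37 had a probe set assigned to that gene alone, out of 17097 such genes on the array, and where a gene had more than 1, the brightest by its mean on the 6 arrays stood for it. Ccnb1, the partner of Cdk1 at the entry to mitosis, is named by no single-gene probe set here.

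Blood of 3 female C57BL/6 mice, labelled A, C and D and aged 6 to 8 weeks, was used, and all had received 3 mg of the progestin Depo-Provera under the skin, 5 days before by the labels (the study's methods give a different number of days). From each mouse, activated effector T cells (CD3+ CD62L- CD44high) were separated by their CD11c staining, giving 1 CD11c+ and 1 CD11c- sample a mouse. CD11c, the integrin chain encoded by Itgax, is best known from dendritic cells and is also found on some activated T cells. Each sample was RNA of 300 cells, amplified as cDNA and read on 1 Affymetrix array, and n was 3 mice throughout, with the fractions paired by mouse.

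A resting T cell stays out of the cycle until activation brings cyclins that inactivate the retinoblastoma proteins and release E2F factors. E2F factors then switch on the genes for loading helicases onto origins and for making and joining nucleotides, and a later wave of genes carries cells through G2 and mitosis. Many genes of that later wave have a CCAAT box and a cell cycle homology region (CHR) in the promoter, which are read by NF-Y and by the DREAM and B-Myb complexes. RNA of these genes is commonly read as a mark of proliferation.

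No member passed the test in either direction. At an adjusted p under 0.05 (limma with mouse as a block, Benjamini-Hochberg over 45141 probe sets), 0 of 37 were higher in CD11c+ cells, where 1.4% of all 17097 genes were, and 0 were lower, where 0.222% of all genes were. Over all probe sets 0.957% were higher and 0.168% lower. The adjusted p of the members ran from 0.0882 (Kif20a) to 0.983 (Top2a). At an unadjusted p under 0.05, 9 members were higher (24.3%, against 7.38% of all genes) and 1 was lower (2.7%, against 7.44%). The 9 were Mcm3, Mcm5, Gmnn, Mki67, Ccna2, Cdk1, Plk1, Birc5 and Kif23, and the 1 was Kif20a.

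The differences lay mostly above 0. The log2 difference, CD11c+ minus CD11c-, was above 0 for 29 members (78.4%) and below 0 for 8, while 33.9% of all genes were above 0. The median over the members was 0.26, with quartiles of 0.19 and 0.78 and a range from -0.84 to 1.9, and the median over all genes was -0.086. In 3 of 3 mice, 17 members were higher in CD11c+ cells (45.9%, against 12.6% of all genes) and 2 members, Ccne1 and Kif20a, were lower (5.41%, against 26.5%). All CD11c+ arrays lay above all CD11c- arrays for 8 members, against 7.48% of all genes, and below them for 1, against 12.5%. Genes of 1 program share their cells and libraries, so the members are not independent readings. These counts rest on 1 probe set a gene: 20 members had others, and of those 26 probe sets 13 had the sign of the one used.

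**Figure D1:**
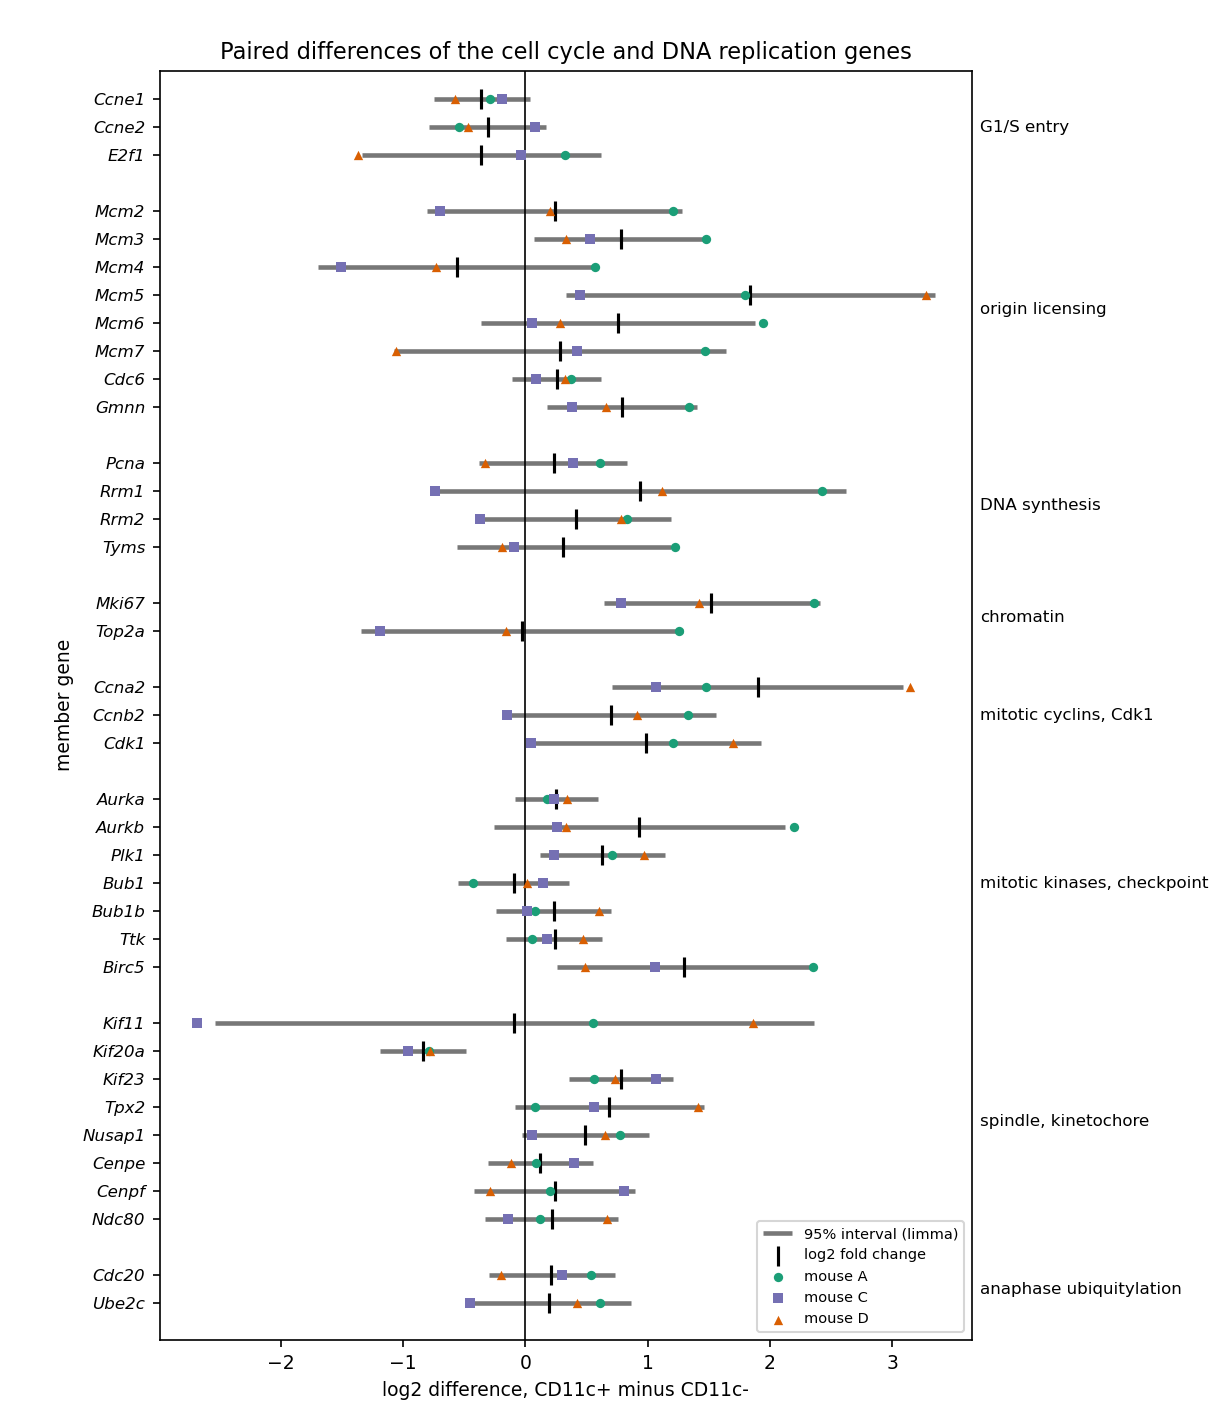
Log2 difference of each of the 37 members (x axis, CD11c+ minus CD11c-), grouped by role, with the 95% interval of the limma fit as a line and the difference in each of the 3 mice as a small mark. Most points lie right of 0, and for 10 of the 37 the interval leaves 0 out.

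The intervals show what these 6 arrays could resolve. They were between 0.68 and 4.9 wide on the log2 scale, with a median width of 1.44. For 13 members the 95% interval lay between -1 and 1, so a difference of 1 or more was outside it for the probe set used. These were Ccne1, Ccne2, Cdc6, Pcna, Aurka, Bub1, Bub1b, Ttk, Cenpe, Cenpf, Ndc80, Cdc20 and Ube2c, of which Ccne1, Pcna and Ube2c lay above the background level in both fractions. Cenpe, a kinetochore motor, had a dimmer second probe set with a difference of 1.06 (95% interval 0.55 to 1.57, adjusted p = 0.115), higher in 3 of 3 mice without overlap. For 18 members the interval reached past 1, for 3 past -1 and for 3 past both.

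Many members were dim. The background level was set at 5.65 on the log2 scale, the 95th percentile of the mean signals of 38 genes of other tissues. Both fraction means lay above it for 13 members, only the CD11c+ mean for 5 (Rrm1, Ccna2, Cdk1, Plk1 and Birc5), only the CD11c- mean for Kif20a, and neither for 18. For the 13 members above it in both, the median log2 difference was 0.31, against -0.089 over 6055 genes above it in both.

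The arrays as a whole had medians between 4.4 and 4.54. With CD11c- arrays below the background level raised to it, Itgax was 9.69-fold higher in CD11c+ cells. In the limma fit of the unraised values, its adjusted p was 0.0387. Its CD11c- mean of 4.6 lay under the background level, and it did not pass with any 1 mouse left out. Centring each array on its median (adjusted p = 0.0542) and cyclic loess (0.066) also lost the call. The CD3 chain Cd3e had values of 11.06, 11.12 and 11.13 in CD11c- cells and 10.56, 10.67 and 10.6 in CD11c+ cells of mice A, C and D. The fractions also differed in markers of other cells. Of 8 basophil and mast cell genes 7 were higher in CD11c+ cells, and their summed linear signal was 130 to 145 in CD11c- and 2740 to 4500 in CD11c+ cells. Of 11 monocyte and macrophage genes 5 were higher, with sums of 1390 to 1590 and 4300 to 5830. Of 6 dendritic cell genes 1, Cd209a, was higher, with sums of 202 to 326 and 847 to 2110. Of 12 T cell genes Cd5 and Cd6 were lower, with sums of 13100 to 14000 and 7390 to 8940. Of 7 B cell genes 1, Pax5, was higher, with sums of 245 to 477 and 492 to 1120. Among 8 natural killer cell genes, 3 were higher and 1 was lower. No probe set passed when mouse A was left out. The part of these other cells in the members' differences was not tested. In RNA of sorted bulk cells, fewer cycling cells and less of a transcript per cell cannot be told apart.

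The promoters of the members with the 4 largest log2 differences among those with an entry in the RefSeq promoter table (GRCm38.p6) are shown to let the letters be seen beside the values. Each run is the 250 bases before the gene's start, 5′ to 3′ on the gene's strand, and capitals mark the letters that matched a motif on either strand. The motifs were the box CCAAT, which reads ATTGG where it lies on the other strand, the usual CHR form TTTGAA, its variant with the letters TTCGAA, and one form of the E2F site, GCGGGAA.
Mcm5 (chr8:75109259-75109508, plus strand): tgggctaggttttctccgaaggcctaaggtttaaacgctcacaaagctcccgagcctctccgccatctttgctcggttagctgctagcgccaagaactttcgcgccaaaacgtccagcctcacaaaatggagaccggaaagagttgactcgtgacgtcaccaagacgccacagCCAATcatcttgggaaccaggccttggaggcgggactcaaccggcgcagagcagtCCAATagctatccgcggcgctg
Mki67 (chr7:135716380-135716629, minus strand): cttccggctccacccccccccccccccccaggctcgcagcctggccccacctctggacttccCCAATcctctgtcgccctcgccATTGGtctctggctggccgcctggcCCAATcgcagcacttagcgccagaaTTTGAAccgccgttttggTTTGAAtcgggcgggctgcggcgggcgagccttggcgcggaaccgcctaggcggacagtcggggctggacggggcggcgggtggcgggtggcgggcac
Birc5 (chr11:117848987-117849236, plus strand): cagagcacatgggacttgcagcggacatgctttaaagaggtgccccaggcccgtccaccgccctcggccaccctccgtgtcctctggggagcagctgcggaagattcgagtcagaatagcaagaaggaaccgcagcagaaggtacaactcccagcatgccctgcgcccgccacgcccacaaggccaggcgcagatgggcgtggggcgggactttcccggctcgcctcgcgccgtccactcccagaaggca
Cdk1 (chr10:69352913-69353162, minus strand): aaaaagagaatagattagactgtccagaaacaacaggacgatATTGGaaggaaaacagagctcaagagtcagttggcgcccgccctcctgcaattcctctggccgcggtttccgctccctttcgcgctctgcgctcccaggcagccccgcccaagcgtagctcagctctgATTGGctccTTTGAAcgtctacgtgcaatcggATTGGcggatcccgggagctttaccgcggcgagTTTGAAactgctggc

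Mcm5 had 2 matches, both CCAAT. Mki67 and Cdk1 each had 5, made of 3 CCAAT and 2 TTTGAA matches. Birc5 had 0, which says only that these letters are not in this window. Of the 38 members, 31 had a promoter in the table. CCAAT stood in 77.4% of these and in 37.5% of the promoters of 27025 genes. It stood in 84.2% of 19 members that act in G2 and mitosis and in 66.7% of 12 that act at S phase entry, licensing or DNA synthesis. TTTGAA stood in 25.8% of members against 18.3% of all genes, and TTCGAA in 9.68% against 1.55%. GCGGGAA stood in 9.68% against 4.38%, and its 3 members, Cdc6, Mcm7 and Rrm1, all act in licensing or DNA synthesis. These are matches of letters and show no binding. Other forms of these sites were not searched, so lower case does not show that a site is absent.

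The genes that start S phase had log2 differences below 0 and did not pass the test. Cyclin E1 (Ccne1), which activates Cdk2 at the G1/S border, had log2 values of 6.46, 6.29 and 6.3 in CD11c- cells of mice A, C and D and 6.17, 6.1 and 5.72 in CD11c+ cells. All CD11c+ values lay below all CD11c- values, and the difference was -0.36 (SE 0.146, adjusted p = 0.418). Its paralog Ccne2 was at or under 3.04 on all arrays, with a difference of -0.31, and lay below the background level. E2f1, an activating E2F factor, had values of 4.33, 4.14 and 6.02 in CD11c- cells and 4.65, 4.1 and 4.65 in CD11c+ cells. Its difference of -0.36 (adjusted p = 0.739) came with 1 high array, the CD11c- array of mouse D, and was 0.14 without mouse D. Its second probe set had a difference of 0.55 (adjusted p = 0.328).

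The genes of origin licensing, among them those of the replicative helicase, had a median log2 difference of 0.52, with 7 of 8 above 0, and none passed the test. Mcm2 to Mcm7 form the MCM ring that unwinds DNA at the fork. Mcm5 had values of 8.09, 8.16 and 6.27 in CD11c- cells and 9.89, 8.6 and 9.56 in CD11c+ cells. The groups did not overlap, but the differences within mice ran from 0.45 in mouse C to 3.28 in mouse D, where the CD11c- array was low. The log2 difference was 1.84 (SE 0.564, 95% interval 0.33 to 3.35, adjusted p = 0.283). A second Mcm5 probe set, with fraction means of 3.11 and 3.06 under the background level, differed by -0.051 (adjusted p = 0.886). The mean of both Mcm5 probe sets gave 0.9 (adjusted p = 0.236).

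Mcm3 had values of 6.92, 7.1 and 7.24 in CD11c- cells and 8.41, 7.63 and 7.57 in CD11c+ cells. These groups did not overlap either, and the difference was 0.78 (SE 0.268, adjusted p = 0.333). Mcm6 had 5.39, 6.43 and 6.81 in CD11c- cells and 7.33, 6.48 and 7.09 in CD11c+ cells, with a difference of 0.76 (adjusted p = 0.552). Its CD11c+ values were higher in 3 of 3 mice, by 1.94 in mouse A and 0.052 in mouse C, and the groups overlapped.

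The other MCM genes did not differ in 1 direction over the 3 mice. Mcm4 had 5.73, 6.59 and 6.83 in CD11c- cells and 6.3, 5.08 and 6.1 in CD11c+ cells, a difference of -0.56 (adjusted p = 0.664). It was higher in CD11c+ cells of mouse A and lower in those of C and D. Mcm2 had differences of 1.21, -0.7 and 0.2 in mice A, C and D, and Mcm7 of 1.47, 0.42 and -1.06. Their mean differences of 0.24 and 0.28 had intervals from -0.81 to 1.28 and from -1.08 to 1.64, and turned to -0.25 and -0.32 without mouse A. In mouse A all 6 MCM genes were higher in CD11c+ cells, by 0.57 to 1.94.

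The loading factor Cdc6 and the licensing inhibitor geminin (Gmnn) were both under the background level. Gmnn had values of 4.49, 4.24 and 3.98 in CD11c- cells and 5.84, 4.62 and 4.64 in CD11c+ cells. The groups did not overlap, and the difference was 0.79 (SE 0.228, adjusted p = 0.255). Cdc6 differed by 0.26 (adjusted p = 0.537), by 0.084 to 0.37 in the 3 mice.

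The 4 genes of DNA synthesis had differences between 0.23 and 0.94, and by the probe sets used none was higher in 3 of 3 mice. Pcna, the sliding clamp of the polymerases, had values of 8.78, 8.16 and 8.99 in CD11c- cells and 9.39, 8.55 and 8.66 in CD11c+ cells. The groups overlapped, and the difference was 0.23 (95% interval -0.38 to 0.83, adjusted p = 0.736). Rrm1 and Rrm2 encode the subunits of ribonucleotide reductase, which makes deoxynucleotides. Rrm1 differed by 2.43, -0.74 and 1.12 in mice A, C and D and Rrm2 by 0.83, -0.37 and 0.78. By these probe sets both were lower in CD11c+ cells of mouse C and higher in those of the other mice (adjusted p = 0.624 and 0.64). A second, dimmer Rrm2 probe set was higher in 3 of 3 mice, with overlap, by 0.77 (95% interval 0.38 to 1.16, adjusted p = 0.126). A second Rrm1 probe set, under the background level in both fractions, differed by 0.055 (adjusted p = 0.917). At the mean of their probe sets Rrm1 differed by 0.5 and Rrm2 by 0.59 (adjusted p = 0.613 and 0.225). Tyms, which makes thymidylate, was higher by 1.22 in mouse A and differed by -0.09 in C and -0.19 in D, with a mean difference of 0.31 (adjusted p = 0.745).

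Mki67, which encodes the Ki-67 protein that coats chromosomes in mitosis, was higher in 3 of 3 mice and did not pass the test. Its values were 5.82, 7.25 and 6.63 in CD11c- cells and 8.17, 8.04 and 8.05 in CD11c+ cells. The spread lay in the CD11c- arrays (SD 0.72) and was small in the CD11c+ arrays (SD 0.076), and the groups did not overlap. The difference was 1.52 (SE 0.331, 95% interval 0.64 to 2.41, adjusted p = 0.158), from 0.78 in mouse C to 2.36 in mouse A. Top2a, the topoisomerase that untangles sister chromatids, differed by 1.26, -1.19 and -0.16 in mice A, C and D. Its mean difference of -0.032 (95% interval -1.35 to 1.29, adjusted p = 0.983) leaves room for a difference of more than 1 either way.

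The mitotic cyclins and Cdk1 had the highest median difference of the 8 roles, 0.99. Ccna2, the cyclin A gene of S phase and G2, had values of 6.23, 5.15 and 4.77 in CD11c- cells and 7.71, 6.22 and 7.92 in CD11c+ cells. It was higher in 3 of 3 mice, by 1.07 to 3.15, and the groups overlapped only because the CD11c- array of mouse A stood as high as the CD11c+ array of mouse C. Its difference of 1.9 (SE 0.444, 95% interval 0.71 to 3.09, adjusted p = 0.18) was the largest of all members. The CD11c- mean lay under the background level. With CD11c- arrays below that level raised to it, the CD11c+ mean was 2.72-fold higher. A second, dimmer Ccna2 probe set differed by 0.21 (adjusted p = 0.846).

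Cdk1, the kinase that drives cells into mitosis, had values of 5.63, 5.7 and 4.9 in CD11c- cells and 6.85, 5.75 and 6.6 in CD11c+ cells. The groups did not overlap, although the arrays of mouse C differed by only 0.048. The difference was 0.99 (SE 0.351, adjusted p = 0.349). The CD11c+ mean was 1.66-fold higher with CD11c- arrays below the background level raised to it. Ccnb2, the cyclin B2 gene, had differences of 1.33, -0.15 and 0.91 in mice A, C and D and a mean of 0.7 (adjusted p = 0.471).

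**Figure D2:**
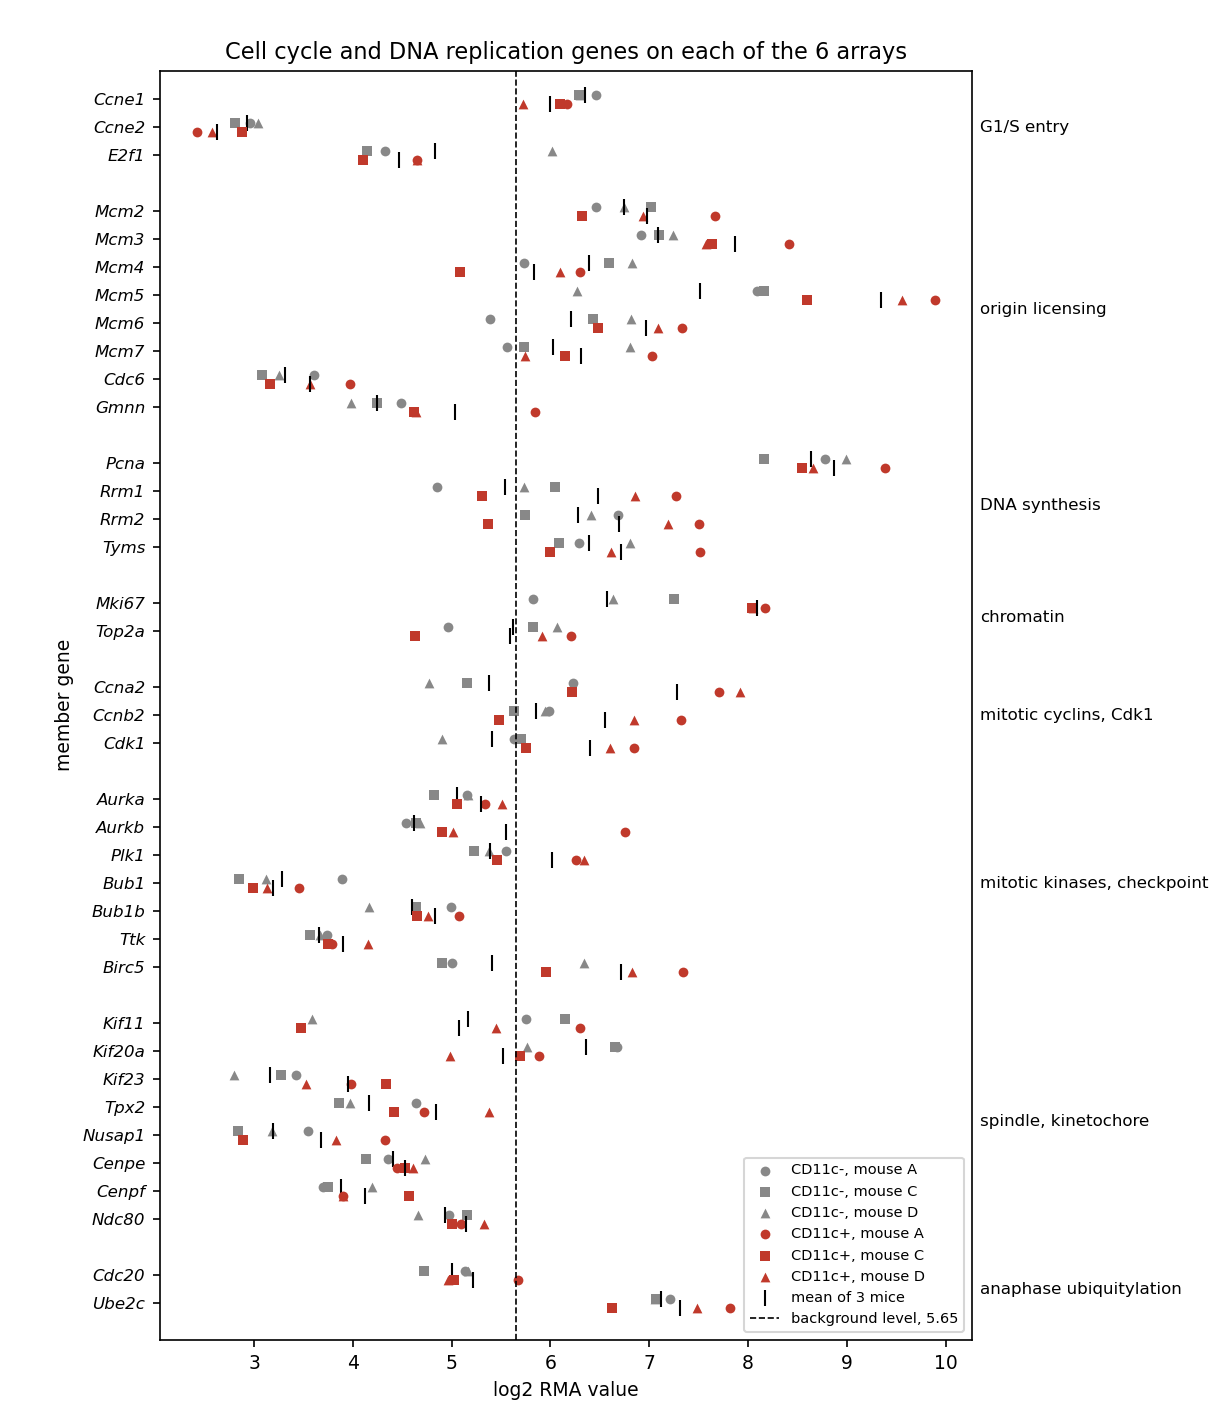
Log2 signal (x axis) of each member on each array, with grey marks for CD11c- and red marks for CD11c+ cells, shaped by mouse, upright ticks for the mean of 3 mice, and the background level of 5.65 as a dashed line. The Mki67 marks of CD11c+ cells fall together at 8.04 to 8.17 while those of Kif11 spread from 3.47 to 6.3.

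Among the mitotic kinases and checkpoint genes, 6 of 7 were higher in CD11c+ cells of 3 of 3 mice, most of them by little. Birc5 encodes survivin, a subunit of the chromosomal passenger complex with the kinase Aurora B. It had values of 5, 4.9 and 6.34 in CD11c- cells and 7.34, 5.95 and 6.83 in CD11c+ cells. The groups overlapped through the CD11c- array of mouse D, and the difference was 1.3 (SE 0.389, adjusted p = 0.273). Its CD11c+ mean was 1.78-fold higher with CD11c- arrays below the background level raised to it. Aurkb, the gene of Aurora B, had 4.54, 4.64 and 4.68 in CD11c- cells and 6.75, 4.9 and 5.01 in CD11c+ cells. The groups did not overlap, but a difference of 2.2 in mouse A stood beside 0.26 and 0.33 in C and D, and without mouse A the mean was 0.29. Both fraction means of Aurkb, 4.62 in CD11c- and 5.55 in CD11c+ cells, lay under the background level.

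Plk1, a kinase of spindle assembly and mitotic exit, had values of 5.55, 5.23 and 5.38 in CD11c- cells and 6.26, 5.46 and 6.34 in CD11c+ cells. It was higher in 3 of 3 mice, with overlap, by 0.63 (SE 0.191, adjusted p = 0.276). The spindle kinase Aurka and the checkpoint kinases Bub1b and Ttk had differences of 0.23 to 0.25, and Bub1 one of -0.093. All 4 were under the background level in both fractions, with adjusted p between 0.517 and 0.848.

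The spindle and kinetochore genes held the only member whose difference was below 0 at an unadjusted p under 0.05. Kif20a, a kinesin of the central spindle and cytokinesis, had values of 6.67, 6.65 and 5.76 in CD11c- cells and 5.88, 5.69 and 4.98 in CD11c+ cells. Its differences of -0.79, -0.96 and -0.78 in mice A, C and D were close to each other. The groups overlapped only because the CD11c- array of mouse D lay under the CD11c+ array of mouse A. The difference was -0.84 (SE 0.13, 95% interval -1.19 to -0.49, adjusted p = 0.0882), the smallest adjusted p of the members. With genes fitted at the mean of their probe sets, where fewer features were tested, its adjusted p was 0.0405. The adjusted p of Kif20a rose to 0.392 when mouse was dropped from the model. It was 0.289 for mouse as a random block, 0.189 under a variance trend and 0.202 to 0.324 leaving out 1 mouse. Filtering on signal, centring, cyclic loess and robust variance gave 0.0927 to 0.107.

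Kif23, another kinesin of the central spindle, lay on the other side. Its values were 3.42, 3.27 and 2.8 in CD11c- cells and 3.98, 4.34 and 3.53 in CD11c+ cells, all under the background level. The groups did not overlap, and the difference was 0.78 (SE 0.159, adjusted p = 0.143). Another dim Kif23 probe set differed by -0.084 (adjusted p = 0.833), with 1 of 3 mice higher, and the mean of both gave 0.35 (adjusted p = 0.318). Kif11, the motor that separates spindle poles, differed by 0.55, -2.69 and 1.86 in mice A, C and D, and had the widest interval of any member. Its mean of -0.093 had an interval from -2.54 to 2.36, and its second probe set differed by 0.93 (adjusted p = 0.422). Tpx2 and Nusap1, which build and bundle spindle microtubules, were higher in 3 of 3 mice by 0.68 and 0.49 on average (adjusted p = 0.432 and 0.394). A second Tpx2 probe set differed by -0.42 (adjusted p = 0.613), with 1 of 3 mice higher, and the mean of both gave 0.13. The kinetochore genes Cenpe, Cenpf and Ndc80 differed by 0.12, 0.24 and 0.22, and these 3 lay, with Tpx2 and Nusap1, under the background level.

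The anaphase genes had differences of 0.21 and 0.19 and did not pass the test. Cdc20, which activates the anaphase-promoting complex, had differences of 0.54, 0.3 and -0.2 in mice A, C and D (adjusted p = 0.709). Ube2c, the ubiquitin-conjugating enzyme of that complex, had values of 7.21, 7.07 and 7.06 in CD11c- cells and 7.82, 6.62 and 7.48 in CD11c+ cells. Its CD11c- values were close (SD 0.084), its CD11c+ values spread around them, and the difference was 0.19 (95% interval -0.48 to 0.86, adjusted p = 0.795).

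The differences were not alike in the 3 mice. Each rests on 1 array per fraction, so mouse, sort, amplification and array cannot be told apart. The median log2 difference over the members was 0.61 in mouse A, 0.084 in C and 0.34 in D, where all genes had medians of -0.17, -0.039 and -0.021. In mouse A 33 of 37 members were higher in CD11c+ cells (89.2%, against 31.8% of all genes), in C 24 (64.9%, against 43.5%) and in D 25 (67.6%, against 47%). A difference above 1 was found for 15 members in mouse A (40.5%, against 5.23% of all genes), 3 in C (8.11%, against 5.04%) and 7 in D (18.9%, against 6.79%). One below -1 was found for 0, 3 and 2 members, and for 4.05%, 3.57% and 5.25% of all genes. For the 13 members above background in both fractions the medians were 1.22 in A, -0.09 in C and 0.28 in D.

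The member means of the CD11c- arrays were nearly alike, at 5.34, 5.28 and 5.33 in mice A, C and D. Those of the CD11c+ arrays were 6.16, 5.29 and 5.78. In these means the difference between mice thus lay in the CD11c+ arrays, and in mouse C the mean difference over the members was 0.0095. For single members it could lie in the CD11c- arrays, as for Mki67 (SD 0.72, against 0.076 in CD11c+ arrays). The CD11c- array of mouse A had the highest median of the 6 arrays, at 4.54. Without mouse A, C or D the members' median was between 0.21 and 0.55, the highest being without mouse C. The B cell markers had median differences of 2.03, 1.14 and 0.48 in A, C and D. Other markers had other orders, with 2.57, 2.93 and 2.99 for monocytes and macrophages and 4.03, 5.06 and 5.29 for basophils and mast cells. Dendritic cell markers had 0.73, 1.31 and 1, natural killer cell markers 1.08, 1.59 and 1.05, and T cell markers -0.41, -0.76 and -1.21. The part of these differences between mice in the members' values was not tested.

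**Figure D3:**
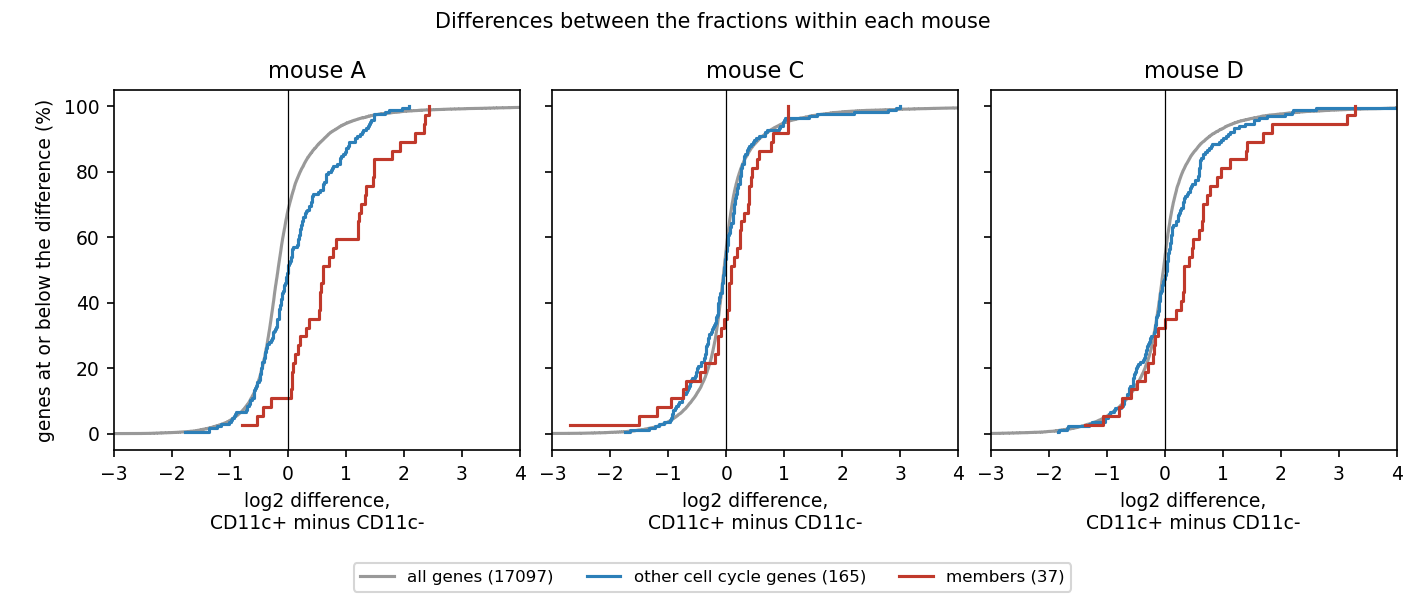
Cumulative share of genes (y axis, percent) at or below a log2 difference between CD11c+ and CD11c- cells (x axis, drawn from -3 to 4) within mouse A, C and D, for all 17097 genes, 165 other cell cycle genes and the 37 members. The members' curve lies right of the others in A and D and close to them in C.

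The other genes of the cell cycle, given in 10 lists of 176 genes, lay on both sides of 0. Of the 165 measured, 80 had a difference above 0 (48.5%, against 78.4% of members and 33.9% of all genes) and 85 below. Their median was -0.0096, against 0.26 for the members and -0.086 for all genes. At an unadjusted p under 0.05, 15 were higher (9.09%, against 7.38% of all genes) and 11 lower (6.67%, against 7.44%). After adjustment 1 was higher and 1 was lower.

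The one higher was cyclin D1 (Ccnd1), which with Cdk4 or Cdk6 phosphorylates the retinoblastoma protein in G1. Its values were 6.89, 6.36 and 6.32 in CD11c- cells and 8.98, 9.28 and 8.52 in CD11c+ cells. It rose in 3 of 3 mice, the groups did not overlap, and the difference was 2.4 (SE 0.214, 95% interval 1.83 to 2.97, adjusted p = 0.0293). Its other probe sets differed by 1.1 and 1.75 and did not pass (adjusted p = 0.157 and 0.107), and the rise did not pass with any 1 mouse left out (adjusted p = 0.051 to 0.177). Cyclin D1 is low in most T cells and common in myeloid and other cells, whose markers were also higher in this fraction, and their part in its rise was not tested. The median of the 8 measured genes of its list, the D cyclins and G1 kinases, was -0.061.

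The one lower was Tfdp2, which encodes a DP partner of the E2F factors. Its values were 6.78, 6.35 and 5.65 in CD11c- cells and 5, 4.69 and 3.97 in CD11c+ cells. It fell in 3 of 3 mice, with differences of -1.77, -1.66 and -1.68 in A, C and D and no overlap, and the mean difference was -1.7 (SE 0.125, adjusted p = 0.0194). The CD11c+ mean lay under the background level, and with CD11c+ arrays raised to that level the fall was 1.53-fold. Its other probe sets gave -1.02 and 0.015 (adjusted p = 0.356 and 0.982), and the call was lost without the block (adjusted p = 0.0981), with a random block (0.0622), at the mean of its probe sets (-0.9, adjusted p = 0.061) and with any 1 mouse left out (adjusted p = 0.0546 to 0.152).

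The ends of the other lists did not pass the test with mouse as a block, and some passed under other settings. The CDK inhibitor p21 (Cdkn1a) had values of 7.93, 6.35 and 4.04 in CD11c- cells and 9.42, 9.14 and 8.58 in CD11c+ cells, a difference of 2.94 (adjusted p = 0.145). E2f8, a repressive E2F factor, differed by 1.96 (adjusted p = 0.107), and Klf4, linked to T cell quiescence, by 2.17 (adjusted p = 0.0966). All CD11c+ arrays lay above all CD11c- arrays for these 3 genes. Rfc2, of the clamp loader, differed by 1.2 (adjusted p = 0.0572) and the condensin gene Smc4 by -1.02 (adjusted p = 0.0743).

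Without the block, with a random block and at the mean of probe sets, E2f8 had adjusted p of 0.0291, 0.0239 and 0.0209, Klf4 of 0.0226, 0.0187 and 0.0194, and Smc4 of 0.0161, 0.0117 and 0.0216. With a variance trend Smc4 had 0.0181. Cdkn1a passed at the mean of probe sets (adjusted p = 0.0329), and Rfc2 there (0.0361) and among probe sets above the median mean (0.0483).

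The medians of the lists differed in sign. The polymerase and fork genes, the closest in role to the synthesis members, had a median of 0.14 with 5 of 22 higher at an unadjusted p under 0.05 (22.7%, against 7.38% of all genes). The kinetochore and spindle list had a median of 0.017 over 36 genes, of which 31 lay under the background level in both fractions. The list of the anaphase-promoting complex and G2 control had a median of -0.14 over 20 genes, and cohesin and condensin one of -0.064 over 17.

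**Figure D4:**
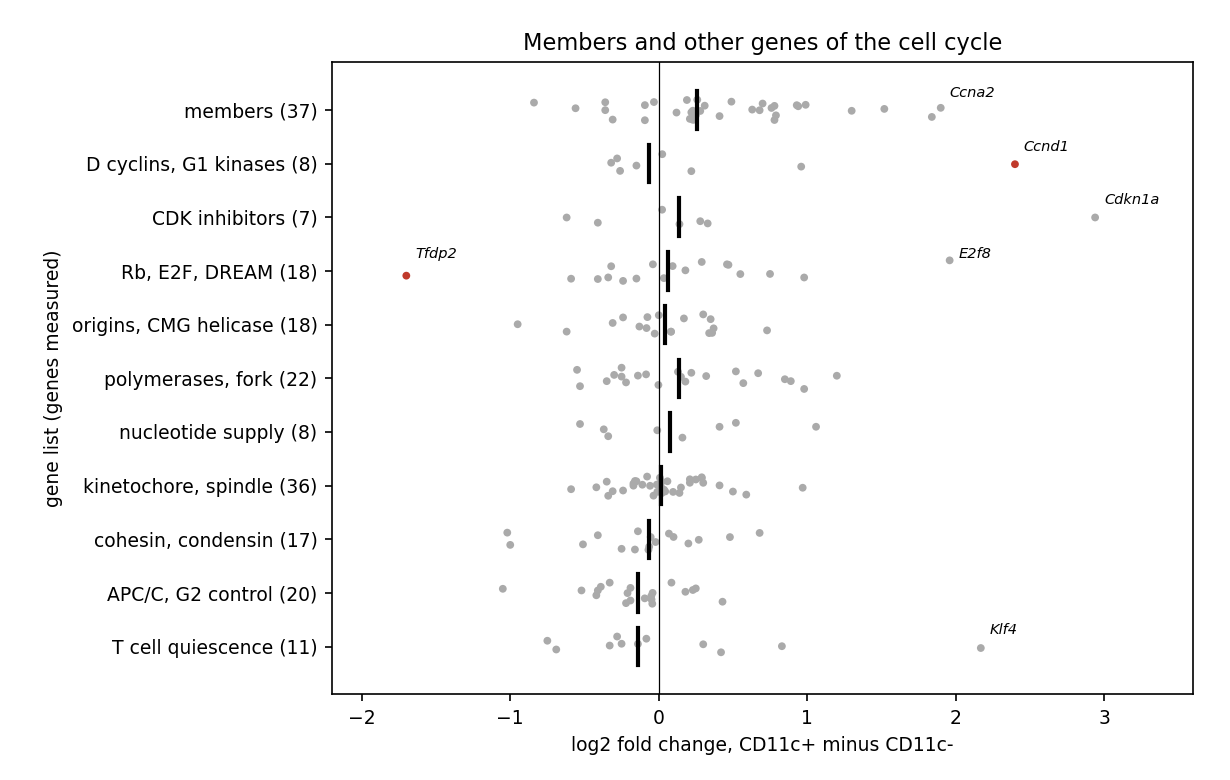
Log2 difference (x axis, CD11c+ minus CD11c-) of every measured gene of the member list and of the 10 other cell cycle lists (y axis), 1 point a gene, with each list's median as a bar. Ccnd1 at 2.4 and Tfdp2 at -1.7 are the genes that passed the test.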

How the data were processed

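The deposited values are log2 signals of 6 single-colour Affymetrix arrays, 1 per mouse and fraction. The authors used RMA to normalize the arrays and to combine probes into probe sets, and limma is named beside it in the submitters' processing notes. Their versions were not given in the sources used here. Since RMA brings the arrays to nearly equal distributions, total RNA per cell cannot be compared. The number of arrays limits the precision. The RNA was amplified from 300 cells, and what that adds to the spread was not tested.

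Here limma 3.58.1 (R 4.3.3) was fitted to the log2 values of 45141 probe sets, 104 of them controls. The model had a fixed term for the mouse, which left 2 residual degrees of freedom, and two-sided p-values were adjusted by Benjamini-Hochberg with a threshold of 0.05. The labels give each pair of arrays to 1 mouse. Same-mouse arrays had deviations from the group means that correlated at 0.122, 0.0758 and 0.109, against -0.086 to -0.0217 for arrays of different mice. In the platform annotation 28898 probe sets carry 1 gene name, 551 more than 1 and 15692 none. Of all probe sets, 30.7% had a mean above the background level.

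Members and lists were chosen with earlier results of these data known. Any member could be named, of the other lists the genes past the threshold and up to 3 at each end, Itgax and the CD3 chains as checks of the sort, and listed markers of other cells. Alternatives changed the block, how a gene's probe sets were used, a filter on signal, the normalization, the variance model or the threshold, or left out 1 mouse. The fit was tested on simulated data with known changes. The RefSeq promoter table held no entry for 7 members.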

Additional observations from a re-analysis of the deposited data

How the results depend on the processing

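Across the alternatives 0 members were higher in CD11c+ cells, and 1 member (Kif20a) was lower when each gene was fitted at the average of its probe sets and at an adjusted p under 0.1. The members' median log2 difference stayed between 0.26 and 0.34 with all mice and ran from 0.21 to 0.55 leaving out 1 mouse. Of 37 members, 4 turned direction with all mice kept, to 0.095 (E2f1), -0.035 (Tyms), 0.021 (Top2a) and 0.42 (Kif11) with the mean of probe sets, and Top2a also to 0.043 after cyclic loess. Leaving out 1 mouse, 26 members kept their direction, and the ranges of the others were -0.21 to 0.078 (Bub1), -0.019 to 0.24 (Cenpe), -0.045 to 0.5 (Cenpf), -0.7 to 0.14 (E2f1), -1.07 to 1.2 (Kif11), -0.25 to 0.71 (Mcm2), -0.32 to 0.95 (Mcm7), -0.011 to 0.4 (Ndc80), -0.68 to 0.55 (Top2a), -0.14 to 0.56 (Tyms) and -0.018 to 0.51 (Ube2c). Without the pairing by mouse (no replicate block) 684 probe sets were higher and 211 lower, against 432 and 76 with it, and 3 genes of the other cell cycle lists were higher. With a random block these were 812, 316 and 4. The mean of probe sets gave 6 higher and 2 lower genes of the other lists. Keeping probe sets above the median mean gave 140 lower probe sets and 2 higher genes of the other lists, and cyclic loess 41 lower probe sets. A variance trend gave 684 and 207 probe sets and 2 lower genes of the other lists, and an adjusted p under 0.1 gave 845 and 380 probe sets and 4 and 2 genes. Leaving out 1 mouse gave 0 to 348 higher and 0 to 44 lower probe sets, 0 to 0 members and 0 to 0 genes of the other lists in each direction, with 0 probe sets by limma without mouse A, where 5563 had an unadjusted p under 0.05. In both fractions 18 of 37 members lay under the background level. The cause of these changes was not tested.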
